A study of Mus musculus with 24 samples.

Results

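The experiment set 4-cell mouse embryos without maternal Eed against control embryos, by RNA sequencing of pools. It comprised 4 of the 24 libraries of the study: 2 maternal knockout libraries (Eed matKO) and 2 control libraries (Eed CTR). Eed matKO embryos came from Eed conditional knockout females crossed with wild-type males, and Eed CTR embryos from the matching control females crossed with wild-type males. The females of both groups had a mixed B6 and 129 background and the males of both were PWK, so every embryo of both groups inherited a wild-type paternal copy of Eed. The sources used here name neither the driver of the deletion nor the age of the females nor the number of embryos in a pool. The sample titles write OE for the 2 knockout libraries, whereas the field on manipulation and the column names call them matKO, which was followed. Genes were kept where FPKM (the fragments of a gene divided by its length and by the mapped fragments of its library) reached 1 in both libraries of either group. This held for 11209 of the 46078 genes in the table, of which 10064 reached 1 in both groups, 466 in matKO alone and 679 in CTR alone.

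EED is a core subunit of Polycomb repressive complex 2 (PRC2), which methylates lysine 27 of histone H3 (H3K27me3), a mark of silenced genes. EED binds the finished mark and stimulates the EZH1 or EZH2 enzyme of the complex. Mouse oocytes carry broad H3K27me3 domains into the embryo, where the mark silences the maternal copy of a set of autosomal genes and of Xist, the RNA that coats and silences an X chromosome; this is known as H3K27me3-dependent or noncanonical imprinting.

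The 4 libraries held an estimated 20.12 and 19.31 M fragments in matKO and 17.51 and 20.04 M in CTR, as read from the smallest step in the values, so that a gene of 2 kb at 1 FPKM rested on 35.03 to 40.24 fragments. Across the 11679 genes tested, log2 levels correlated at 0.966 between the matKO libraries, at 0.974 between the CTR libraries and at 0.964 to 0.967 across groups; these are correlations across genes, which are not independent replicates. Of 12 markers of the 4-cell embryo 11 passed the filter, with Klf17, an early embryonic transcription factor, at 244 and 289 FPKM in matKO and 309 and 310 FPKM in CTR. Only 1 of 20 markers of cumulus and granulosa cells passed, and the summed level of these 20 was 14.5 and 13.7 FPKM in matKO and 15.4 and 14.0 FPKM in CTR, nearly all of it from Amhr2. The sums were 8.707 and 4.6 FPKM in matKO and 5.52 and 4.36 FPKM in CTR for 10 blood markers, and 16.8 and 17.2 FPKM in matKO and 17.4 and 19.0 FPKM in CTR for 10 sperm and spermatid markers. The share of all FPKM held by 7SL and 7SK RNA was 19.3% and 20.1% in matKO and 17.5% and 17.6% in CTR, and that of mitochondrial rRNA was 15.1% and 14.6% in matKO and 16.1% and 15.5% in CTR. Both shares separated the groups, and their part in the results was not tested. Whether both libraries of a group stem from separate collections is not labelled; p-values then measure only the spread between the libraries at hand, which may be technical.

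Transcript levels in matKO embryos stayed close to those in CTR embryos, and 2 noncoding genes rose past the threshold. The median change of the kept genes was 0.01 on the log2(FPKM + 1) scale, the scale of every log2 change here (matKO minus CTR). The 25th and 75th percentiles of the change were -0.18 and 0.18, and the 1st and 99th were -1.03 and 0.99. By limma's moderated test at a Benjamini-Hochberg adjusted p under 0.05, 2 genes were higher (0.0171% of 11679) and 0 lower (0.0%). At an unadjusted p under 0.05, limma gave 523 higher genes (4.48%) and 442 lower genes (3.78%), together 8.26%. In 2417 genes (20.7%) both matKO libraries lay above both CTR libraries, and in 2187 genes (18.7%) both lay below; the shares among the 11209 kept genes were 21.6% and 19.5%. These genes are called separated below, and the shares of all genes tested are the background for each count of separated genes. With a change of at least 1 (log2), 99 genes were separated upwards and 110 downwards, including 25 and 36 small RNA genes. Most of the kept genes, 9497, were protein coding.

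**Figure D1:**
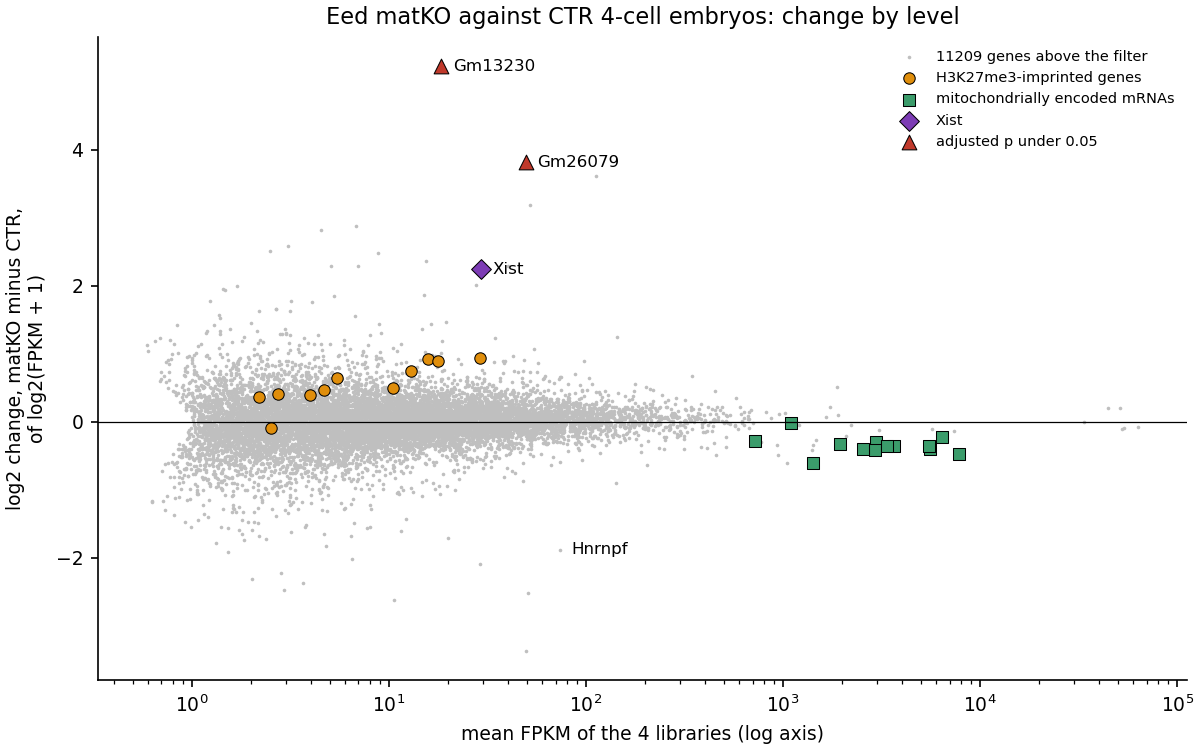
Change of each kept gene in matKO against CTR embryos (y axis, difference of mean log2(FPKM + 1)) by its mean FPKM in the 4 libraries (x axis, log scale). The 2 triangles passed the adjusted threshold; Xist and 10 of the 11 H3K27me3-imprinted genes lie above 0, and all 13 mRNAs of the mitochondrial genome lie below 0.

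Gm13230, a transcribed pseudogene on chromosome 4 (145446740 to 145450888, plus strand, mm10), had 41.9 and 32.0 FPKM in matKO and was listed at 0 in both CTR libraries (log2 change 5.23, SE 0.23, limma adjusted p = 0.0027). The matKO levels stood for an estimated 1326 and 973 fragments. The gene passed the filter through matKO alone, the group where it is high, so the filter favoured this direction. It overlaps Platr16, a noncoding transcript on the same strand, which had 15.2 and 16.5 FPKM in matKO and 29.1 and 24.2 FPKM in CTR. The pair therefore ran in opposite directions, and how fragments were divided between them was not tested. In the other 4-cell libraries of the study, Gm13230 was also listed at 0 in some and at up to 32.9 FPKM in others.

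Gm26079, a snoRNA gene on chromosome 5 (110692049 to 110692181, minus strand), had 86.3 and 99.6 FPKM in matKO and 6.06 and 5.23 FPKM in CTR (16.5-fold, log2 change 3.82, SE 0.15, limma adjusted p = 0.0027). These levels rested on an estimated 231 and 256 fragments in matKO and 14 and 14 in CTR. It lies inside Ep400, which encodes a chromatin remodelling ATPase, on the same strand; Ep400 itself had 36.4 and 24.6 FPKM in matKO and 50.4 and 46.8 FPKM in CTR. In 8 other 4-cell libraries of the study, from a separately normalized table, the snoRNA gene ranged from 4.46 to 53.9 FPKM, so both matKO levels lay above all of these. The libraries labelled KDM6B OE had 4.46 and 6.88 FPKM and those labelled KDM6B CTR 51.0 and 53.9 FPKM (log2 change -3.03). Without matKO replicate 1 neither Gm13230 nor Gm26079 was called (limma adjusted p = 0.119 for both), nor without matKO replicate 2 (0.0737 for both). Both rested on the filter as well, with adjusted p = 0.109 and 0.0968 when every detected gene was tested.

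Hnrnpf, which encodes a heterogeneous nuclear ribonucleoprotein that binds G-rich RNA in splicing, was the nearest protein-coding gene to the threshold. It had 27.3 and 34.4 FPKM in matKO and 123 and 109 FPKM in CTR (0.266-fold, log2 change -1.88, SE 0.15, limma adjusted p = 0.0647), or an estimated 1671 and 2026 fragments in matKO and 6561 and 6641 in CTR. The groups were far apart relative to the spread within either, and 4 alternatives took the limma adjusted p below 0.05 (0.0440 to 0.0485). It stayed above 0.05 with a robust variance model (0.0540), a pseudocount of 0.1 (0.0782) and a replicate block (0.130). The same held without a variance trend (0.335) and without the filter (0.724). With 1 library left out the log2 change was -2.05 to -1.72. In the 8 KDM6B and PR-DUB libraries of the same stage, from the other table, Hnrnpf ranged from 58.5 to 145 FPKM, so both matKO levels lay below all of these. Syncrip, for another protein of this class and chosen after its values were seen, had 102 and 94.7 FPKM in matKO and 177 and 192 FPKM in CTR (log2 change -0.90, limma adjusted p = 0.211).

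Prl3b1, the gene of a placental lactogen and likewise chosen after its values were seen, had 24.98 and 23.2 FPKM in matKO and 5.74 and 6.01 FPKM in CTR (4.10-fold, log2 change 1.87, limma adjusted p = 0.0752). Its range in those 8 libraries was 12.2 to 88.3 FPKM, above both CTR levels. Among the 12 largest separated increases were also Zbed6, a transcription factor gene within Zc3h11a, with 11.4 and 6.01 FPKM in matKO and 0.51 and 0.17 FPKM in CTR, and Cox7b2, for a testis form of a cytochrome c oxidase subunit, with 9.35 and 8.65 FPKM in matKO and 1.97 and 0.41 FPKM in CTR. Rhox9, a reproductive homeobox gene of the X chromosome, had 9.05 and 15.1 FPKM in matKO and 0.58 and 3.29 FPKM in CTR, and Gm13247, on chromosome 4, had 77.6 and 53.8 FPKM in matKO and 23.6 and 6.28 FPKM in CTR. None of these 4 passed the threshold (limma adjusted p = 0.257 to 0.418). Zc3h11a, on the strand of Zbed6, ran the other way, with 27.6 and 29.8 FPKM in matKO and 38.9 and 35.6 FPKM in CTR. How fragments were divided between this pair was not tested. In the other 4-cell libraries of the study Zbed6 ranged from 0.13 to 22.3 FPKM. The others of the 12 were small RNA genes (mmu-mir-3069, n-R5s93, Snora3 and Gm27671), Alpk2, for a kinase, and Pcgf2, described with PRC1 below. Of all 12 only Gm26079 and Gm13247 reached 1 FPKM in both libraries of CTR as well. The rest passed the filter through matKO alone, the group where they are high. Of the small RNAs, mmu-mir-3069 had 70.1 and 78.4 FPKM in matKO and 59.3 and 0.13 FPKM in CTR, while Scarna13, which overlaps it, was listed at 0 in the first 3 of these libraries and at 237 FPKM in CTR replicate 2.

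Of the 12 largest separated decreases, 4 were protein-coding genes. Tsga8, a testis gene of the X chromosome, had 0.75 and 0.31 FPKM in matKO and 6.16 and 7.498 FPKM in CTR (log2 change -2.36, limma adjusted p = 0.211). In the other 4-cell libraries of the study, from a separately normalized table, Tsga8 ranged from 0 to 1.29 FPKM, below both CTR levels. Bola1, for a mitochondrial protein of iron and sulphur cluster assembly, had 3.12 and 1.03 FPKM in matKO and 9.20 and 12.5 FPKM in CTR. The third is Hnrnpf, and the fourth a second Mapkapk5 entry with 7.47 and 0.15 FPKM in matKO and 8.31 and 9.77 FPKM in CTR. The main Mapkapk5 entry overlaps it and ran the other way, with 120 and 136 FPKM in matKO and 63.0 and 73.4 FPKM in CTR (1.87-fold, limma adjusted p = 0.299). The remaining 8 were Gm28062, which the annotation used here does not hold, the pseudogene Gm11800, and the small RNA genes Gm24871, Gm22858, Mir147, Snord73a, Gm23130 and Gm25878. Of all 12 only Bola1, Hnrnpf, Gm28062 and Gm11800 reached 1 FPKM in both libraries of matKO as well. The rest passed the filter through CTR alone, the group where they are high.

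The autosomal genes known for H3K27me3-dependent imprinting were mostly higher in matKO embryos. Of 43 listed genes 41 were in the table and 11 passed the filter, each with at least 1 FPKM in all 4 libraries. By limma 0 of the 11 passed the adjusted threshold; at an unadjusted p under 0.05, 5 were higher and 0 lower. In 8 of the 11 both matKO libraries lay above both CTR libraries, and in 0 both lay below, beside 20.7% and 18.7% of all genes tested. The median change of the 11 was 0.50, beside 0.01 for all genes tested. In a pool of cells, fewer cells of a type and less RNA per cell cannot be told apart, and FPKM without allele counts do not show which parental copy was read.

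The promoters of 3 of the genes that carry this pattern, and of Xist, are printed to show how far they share the CpG-rich sequence at which PRC2 is known to gather. They span 250 bases before to 50 after the start of the gene, 5′ to 3′ on the strand of the gene, from RefSeq on GRCm38.p6. Capitals mark each CG, which reads the same on both strands.
Etv6 (chr6:134035450-134035749, plus strand): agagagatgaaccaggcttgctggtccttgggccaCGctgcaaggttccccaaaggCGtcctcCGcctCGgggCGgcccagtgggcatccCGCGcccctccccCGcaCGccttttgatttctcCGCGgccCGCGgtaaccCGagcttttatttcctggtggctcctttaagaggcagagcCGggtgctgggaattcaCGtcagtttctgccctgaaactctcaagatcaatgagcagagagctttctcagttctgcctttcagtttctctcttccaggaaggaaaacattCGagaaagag
Gab1 (chr8:80880470-80880769, minus strand): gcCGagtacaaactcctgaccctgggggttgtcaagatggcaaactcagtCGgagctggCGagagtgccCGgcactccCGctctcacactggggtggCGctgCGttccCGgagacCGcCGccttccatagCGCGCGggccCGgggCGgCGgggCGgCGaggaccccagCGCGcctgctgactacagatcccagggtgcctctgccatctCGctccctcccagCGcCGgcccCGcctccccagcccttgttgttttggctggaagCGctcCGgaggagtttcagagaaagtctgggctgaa
Tle3 (chr9:61372116-61372415, plus strand): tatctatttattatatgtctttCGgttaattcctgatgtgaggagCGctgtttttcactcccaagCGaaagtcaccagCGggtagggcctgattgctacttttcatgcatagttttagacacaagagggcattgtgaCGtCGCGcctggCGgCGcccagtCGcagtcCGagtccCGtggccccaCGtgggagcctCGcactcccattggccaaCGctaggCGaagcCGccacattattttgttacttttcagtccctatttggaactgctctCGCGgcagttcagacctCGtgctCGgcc
Xist (chrX:103483184-103483483, minus strand): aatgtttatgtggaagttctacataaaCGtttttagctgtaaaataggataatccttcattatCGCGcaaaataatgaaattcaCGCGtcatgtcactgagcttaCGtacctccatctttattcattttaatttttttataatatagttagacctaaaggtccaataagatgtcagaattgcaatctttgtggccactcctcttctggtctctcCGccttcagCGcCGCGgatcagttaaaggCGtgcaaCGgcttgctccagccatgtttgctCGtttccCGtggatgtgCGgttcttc
Etv6 held 17 CG, Gab1 26, Tle3 21 and Xist 15 in 300 bases. The median over the 7667 kept genes with a promoter was 22, so that of the 4 only Gab1 lay above the typical kept gene. Jade1 held 18 and Sfmbt2 9. The median over 27025 promoters of that length was 7, and 31.9% held at least as many as Etv6, 16.8% as many as Gab1 and 35.2% as many as Xist. A count of CG is a description of the sequence, and its link to the change was not tested. Over these 7667 genes the median change was -0.01 in the class of genes with the fewest CG (0 to 14) and -0.00 with 15 to 22. It was 0.01 with 23 to 30 and 0.03 with 31 to 65, so the medians rose in small steps.

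Bbx, which encodes an HMG-box protein, had 38.2 and 38.3 FPKM in matKO and 18.7 and 20.3 FPKM in CTR (1.96-fold, log2 change 0.93, SE 0.13, limma adjusted p = 0.294). The 2 libraries of each group lay close together and the groups were well apart. Etv6, the gene of an ETS-family repressor, had 17.7 and 24.4 FPKM in matKO and 9.81 and 11.2 FPKM in CTR (2.01-fold, log2 change 0.93, SE 0.20, limma adjusted p = 0.366). Jade1, for a scaffold protein of a histone acetyltransferase, had 18.7 and 28.2 FPKM in matKO and 11.3 and 12.7 FPKM in CTR (1.96-fold, log2 change 0.89, SE 0.22, limma adjusted p = 0.459). In both of these matKO replicate 2 was the higher library.

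Gab1, the gene of a docking protein for receptor tyrosine kinases that the placenta needs, had 14.4 and 18.6 FPKM in matKO and 8.35 and 10.5 FPKM in CTR (1.75-fold, log2 change 0.74, SE 0.21, limma adjusted p = 0.495). Tle3, for a Groucho-family corepressor, had 12.4 and 12.5 FPKM in matKO and 8.505 and 8.519 FPKM in CTR (1.46-fold, log2 change 0.50, SE 0.17, limma adjusted p = 0.566). Its change was smaller than that of Bbx, and its 2 libraries of each group lay close together. Epas1, which encodes the hypoxia factor HIF-2 alpha, had 5.17 and 8.75 FPKM in matKO and 4.34 and 3.63 FPKM in CTR (log2 change 0.64). Smoc1, for a secreted matrix protein, had 2.65 and 3.93 FPKM in matKO and 2.08 and 2.31 FPKM in CTR (0.41), and Enc1, for an actin-binding kelch protein, had 4.44 and 4.76 FPKM in matKO and 2.75 and 3.86 FPKM in CTR (0.39). In these last 3 genes the gap between the groups, in FPKM, was smaller than the wider spread within a group. The same held in FPKM for Jade1, Etv6 and Gab1.

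The groups overlapped in the other 3 genes. Gramd1b, for a sterol transfer protein, had 7.06 and 4.199 FPKM in matKO and 2.98 and 4.55 FPKM in CTR. Sfmbt2, a Polycomb-group gene required in the placenta, had 3.84 and 1.51 FPKM in matKO and 1.65 and 1.77 FPKM in CTR. Rftn2, for a lipid raft protein, had 1.11 and 3.59 FPKM in matKO and 4.32 and 1.05 FPKM in CTR, and was the only one of the 11 with a negative change (-0.08). The 30 genes below the filter reached at most 0.99 FPKM, and 11 of them stayed under 0.1 FPKM in all 4 libraries. Slc38a4, an amino acid transporter gene that is a standard example of this imprinting, had 0.52 and 0.50 FPKM in matKO and 0.49 and 0.47 FPKM in CTR. Platr20, a noncoding gene, had 0.99 and 0.87 FPKM in matKO and 0.26 and 0 FPKM in CTR.

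**Figure D2:**
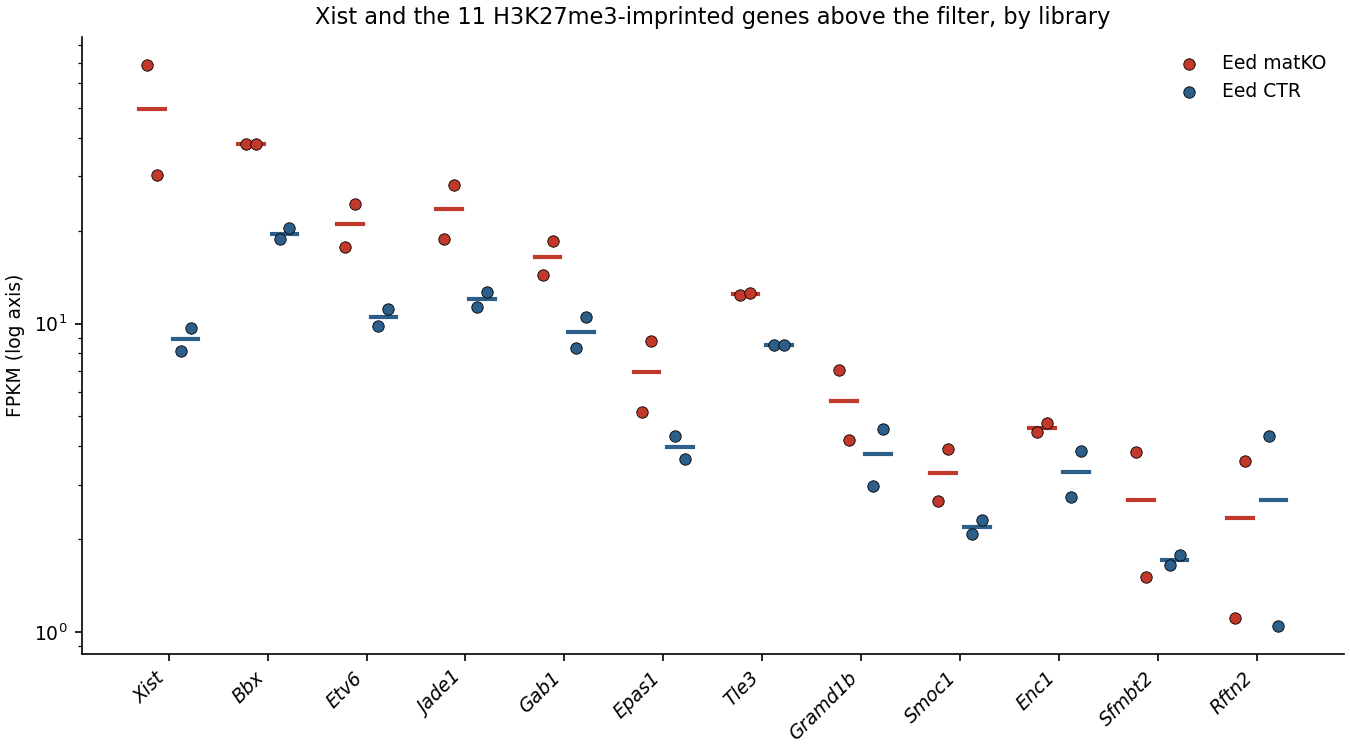
FPKM (log axis) of Xist and the 11 H3K27me3-imprinted genes above the filter in each Eed matKO and Eed CTR library; points are libraries and bars the mean of 2. Red points lie above blue points without overlap for Xist and 8 of the 11 genes, and the groups mix for Gramd1b, Sfmbt2 and Rftn2.

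The same 11 genes had other values in the 2 other experiments of the study, each with libraries labelled OE and CTR and both from a separately normalized table. They are named after KDM6B, which removes methyl groups from H3K27, and PR-DUB, which removes ubiquitin from histone H2A. Kdm6b had 597 and 547 FPKM in the libraries labelled KDM6B OE and 571 and 401 FPKM in those labelled KDM6B CTR, whereas PR-DUB embryos of this stage ranged between 5.24 and 7.36 FPKM. Its RNA was thus high in both KDM6B groups, and their comparison does not set high against low Kdm6b RNA. Bap1, for the enzyme of PR-DUB, had 10.6 and 8.81 FPKM in PR-DUB OE and 6.02 and 6.20 FPKM in PR-DUB CTR libraries. In the libraries labelled KDM6B OE, against those labelled KDM6B CTR, 1 of the 11 was separated upwards and 3 downwards, beside 15.4% and 21.4% of genes, with a median change of -0.20 beside -0.04 for all genes. With PR-DUB OE, 8 were separated upwards and 0 downwards, beside 43.3% and 19.1% of genes, with a median of 0.37 beside 0.17. The difference between experiments was not tested. Bbx had 7.09 and 10.7 FPKM in KDM6B OE and 9.46 and 19.1 FPKM in KDM6B CTR libraries, and 28.0 and 23.3 FPKM in PR-DUB OE and 16.2 and 21.5 FPKM in PR-DUB CTR libraries. Jade1 had 11.5 and 21.8 FPKM in KDM6B OE and 12.4 and 33.8 FPKM in KDM6B CTR libraries, and 9.10 and 9.81 FPKM in PR-DUB OE and 4.65 and 5.19 FPKM in PR-DUB CTR libraries. For Jade1 the KDM6B groups overlapped while the PR-DUB groups were separated upwards. In MII oocytes Jade1 was near 0 (0 and 0.02 FPKM), as were Tle3 (0.02 and 0) and Smoc1 (0.11 and 0.03), whereas Bbx had 4.38 and 4.14 FPKM.

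**Figure D3:**
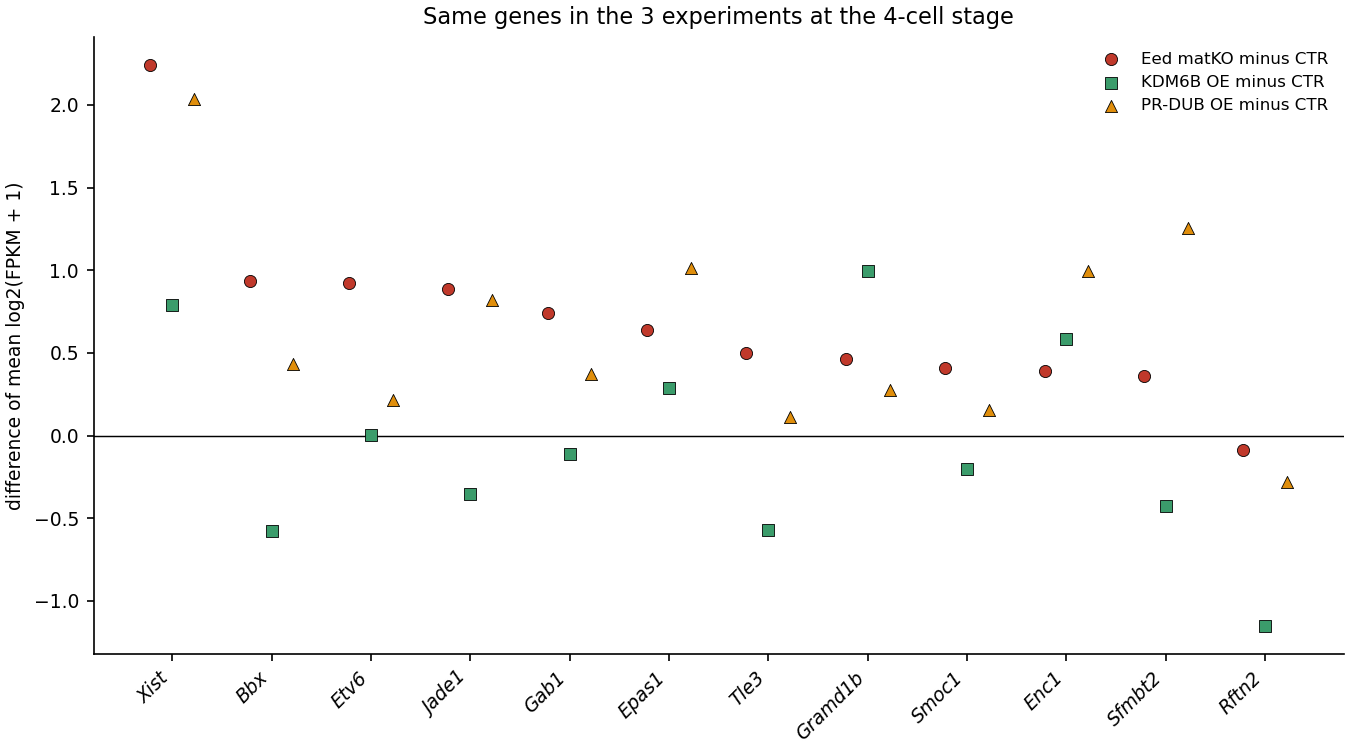
Difference of mean log2(FPKM + 1) for Xist and the 11 H3K27me3-imprinted genes in 3 experiments at the 4-cell stage: Eed matKO minus CTR (circles), KDM6B OE minus CTR (squares) and PR-DUB OE minus CTR (triangles). In the Eed and PR-DUB experiments 10 of the 11 genes lie above 0 and Rftn2 below it, whereas the KDM6B values, from groups that both had high Kdm6b RNA, lie on both sides.

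Xist, on chromosome X (103460366 to 103483254, minus strand), had 68.9 and 30.3 FPKM in matKO and 8.16 and 9.67 FPKM in CTR (5.57-fold, log2 change 2.24, SE 0.37, limma adjusted p = 0.331). These levels stood for an estimated 24882 and 10500 fragments in matKO and 2563 and 3476 in CTR. Both matKO libraries lay well above both CTR libraries and matKO replicate 1 was the higher of the pair. Tsix, the antisense partner, stayed at or under 0.15 FPKM in all 4 libraries. Gm27927, a short RNA entry inside Xist on the same strand, had 47.1 and 42.8 FPKM in matKO and 12.6 and 8.49 FPKM in CTR (log2 change 2.02, limma adjusted p = 0.149); fragments of Xist and of this entry cannot be told apart. Without matKO replicate 1 the log2 change of Xist was 1.66, and without matKO replicate 2 it was 2.82. Xist was near 0 in MII oocytes (0.01 and 0 FPKM) and at 0.49 and 1.62 FPKM in late 2-cell embryos. It had 25.7 and 5.87 FPKM in KDM6B OE and 3.36 and 13.02 FPKM in KDM6B CTR libraries, which overlap, and 30.2 and 10.3 FPKM in PR-DUB OE and 3.20 and 4.00 FPKM in PR-DUB CTR libraries, which do not.

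Neighbours and regulators of Xist gave no common direction. Jpx, a noncoding activator of Xist, had 0.53 and 1.53 FPKM in matKO and was listed at 0 in both CTR libraries, below the filter. Ftx, a noncoding gene that overlaps Jpx, was also below the filter, with 0.49 and 0.95 FPKM in matKO and 0.11 and 0.29 FPKM in CTR. Rlim, the gene of a ubiquitin ligase that promotes Xist expression, had 69.8 and 67.8 FPKM in matKO and 81.8 and 23.5 FPKM in CTR, with 1 low CTR library. Chic1 had 6.68 and 8.30 FPKM in matKO and 8.89 and 9.41 FPKM in CTR.

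X-linked transcripts as a whole stood at a similar level in both groups. The median log2(FPKM + 1) of 343 X-linked protein-coding genes lay below that of 9434 autosomal ones, with differences of -0.39 and -0.35 in the matKO libraries and -0.40 and -0.34 in the CTR libraries. This gap depended on the filter: with a mean FPKM of at least 5 it was 0.0352 and -0.0646 in matKO and 0.0504 and -0.0400 in CTR libraries, for 189 X-linked genes. The difference between groups was -0.0002 (exact two-sided permutation p = 1.0; 2 libraries against 2 cannot go below 0.3333). Of 448 X-linked genes tested 96 were separated upwards and 99 downwards, beside 20.7% and 18.7% of all genes tested. Their median change was 0.01. The sex of the embryos in a pool is not labelled. The summed level of 10 Y-linked genes, which male embryos alone carry, was 16.76 and 26.01 FPKM in matKO and 19.98 and 28.53 FPKM in CTR, and the groups overlapped; the part of the sex of the embryos in the Xist levels was not tested. Of 6 Y-linked genes above the filter 5 overlapped between the groups, and Kdm5d, which passed the filter through CTR alone, had 0.39 and 0.32 FPKM in matKO and 1.39 and 1.34 FPKM in CTR.

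Eed itself had 22.7 and 26.9 FPKM in matKO and 28.5 and 33.1 FPKM in CTR (log2 change -0.30, limma adjusted p = 0.667). The matKO libraries lay below the CTR libraries by a small step, and a level over the whole gene does not show whether an exon is missing. The embryos could read the paternal copy, and MII oocytes of the study, from other females, had 138 and 133 FPKM. Of the 11 PRC2 genes above the filter 3 were separated upwards and 1 downwards, beside 20.7% and 18.7% of all genes tested. Their median change was 0.08. E130012A19Rik (also called Epop), for an accessory subunit, had 15.6 and 12.6 FPKM in matKO and 8.90 and 6.05 FPKM in CTR (1.89-fold, limma adjusted p = 0.495). Phf1, for a Polycomb-like accessory subunit, had 14.7 and 10.7 FPKM in matKO and 9.97 and 9.98 FPKM in CTR, and Ezh1, for the alternative enzyme, had 14.7 and 16.6 FPKM in matKO and 14.1 and 13.5 FPKM in CTR. Mtf2, Jarid2, Aebp2, Suz12, Rbbp4, Rbbp7 and Ezh2 overlapped between the groups. Of the H3K27 demethylases, Kdm6b had 6.93 and 7.65 FPKM in matKO and 7.91 and 9.13 FPKM in CTR.

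Among 23 tested subunits of PRC1, which ubiquitinates histone H2A, and of PR-DUB, 6 were separated upwards and 5 downwards. These counts stand beside 20.7% and 18.7% of all genes tested, and the median change of the 23 was 0.05. Pcgf2 and Bmi1 encode alternative subunits of PRC1. Pcgf2 had 8.19 and 21.4 FPKM in matKO and 0 and 5.60 FPKM in CTR (log2 change 2.48, SE 0.89, limma adjusted p = 0.569), with a spread within each group wider than the gap between them. Its level in the other 4-cell libraries of the study ranged from 0 to 18.7 FPKM. Bmi1 had 260 and 244 FPKM in matKO and 188 and 178 FPKM in CTR (1.38-fold, limma adjusted p = 0.366), and Pcgf6, for the subunit of a variant PRC1, had 44.0 and 37.3 FPKM in matKO and 30.4 and 26.6 FPKM in CTR. Ring1, for a ubiquitin ligase subunit, had 1.73 and 0.54 FPKM in matKO and 2.03 and 1.94 FPKM in CTR.

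Of 25 tested genes imprinted by DNA methylation, 8 were separated upwards and 4 downwards, beside 20.7% and 18.7% of all genes tested. Their median change was 0.09, and 0 were called. Phlda2, a maternally expressed gene that restrains placental growth, had 45.9 and 53.9 FPKM in matKO and 27.5 and 25.9 FPKM in CTR (1.87-fold, log2 change 0.87, limma adjusted p = 0.331). Commd1 had 4.51 and 5.74 FPKM in matKO and 2.35 and 1.84 FPKM in CTR, and Tssc4, from the same imprinted domain as Phlda2, had 8.37 and 9.85 FPKM in matKO and 5.57 and 3.62 FPKM in CTR. Nnat, a paternally expressed gene, ran the other way, with 1.18 and 1.18 FPKM in matKO and 3.53 and 2.78 FPKM in CTR. The difference of this list from the H3K27me3-imprinted genes was not tested.

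Developmental regulators, the classic Polycomb targets, were mostly silent: of 200 genes found there 29 were tested, and 83 of the other 171 stayed under 0.1 FPKM in all 4 libraries. Of the 29, 8 were separated upwards and 3 downwards, beside 20.7% and 18.7% of all genes tested. Their median change was 0.09, and 0 were called. Hand1, for a trophoblast and heart transcription factor, had 58.8 and 71.9 FPKM in matKO and 39.4 and 38.3 FPKM in CTR (1.68-fold, limma adjusted p = 0.344). Pax6, the eye and brain regulator, had 6.19 and 6.42 FPKM in matKO and 3.26 and 2.54 FPKM in CTR (2.18-fold), and Nr2f2, for an orphan nuclear receptor, had 2.08 and 2.72 FPKM in matKO and 0.45 and 0.32 FPKM in CTR. Foxf1, a mesoderm regulator, had 2.88 and 2.81 FPKM in matKO and 0.74 and 1.25 FPKM in CTR. All 4 were higher in both matKO libraries, but Nr2f2 and Foxf1 passed the filter through matKO alone, which favoured this direction. On this list 4 genes passed it through CTR alone.

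**Figure D4:**
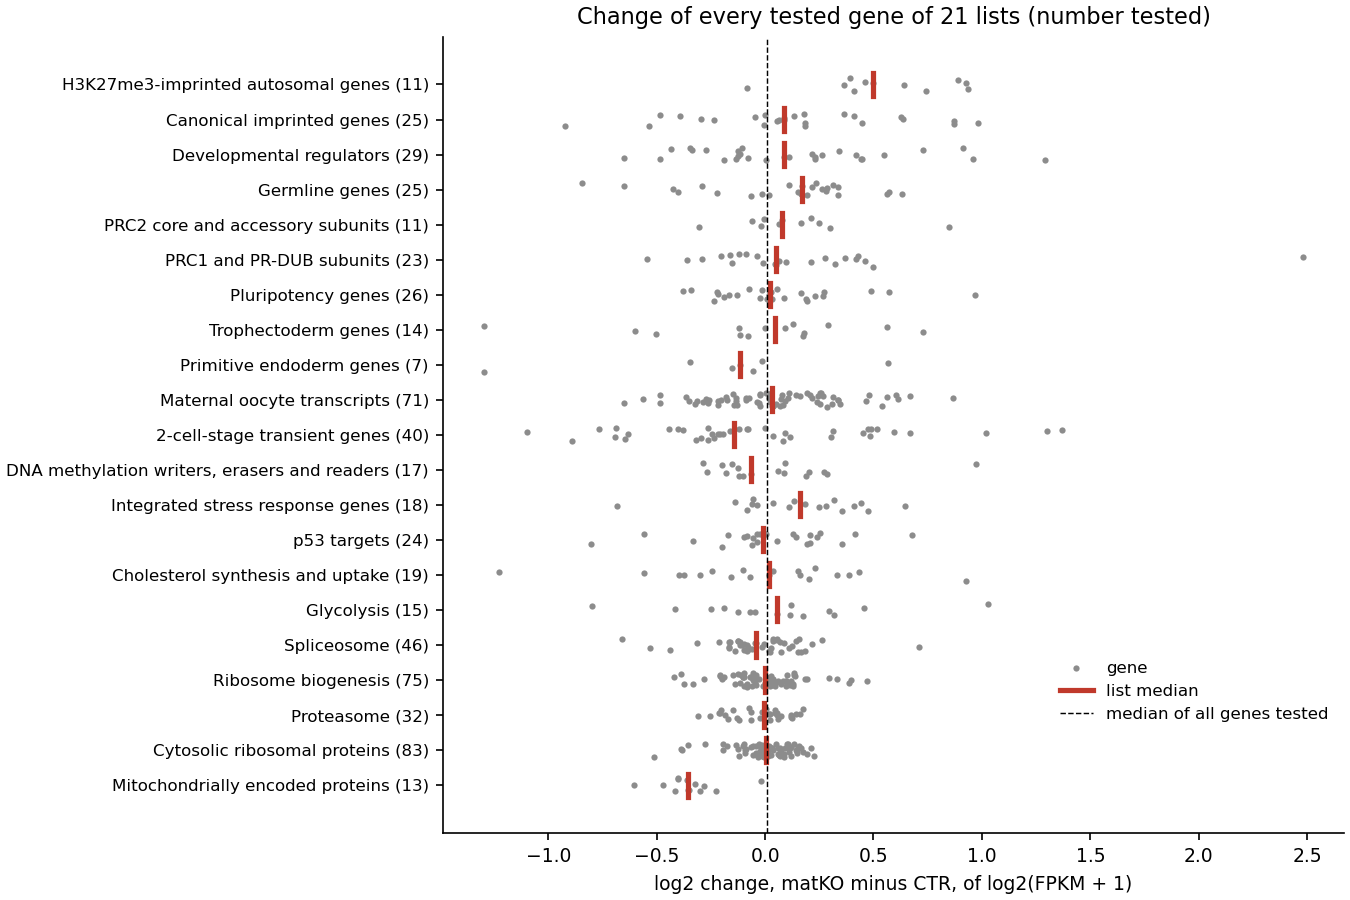
Log2 change in matKO against CTR of every tested gene in 21 lists (grey points), with the median of each list (red bar) and of all genes tested (dashed line); the number of genes tested is in brackets. The 21 leave out the 4-cell and other cell type markers and lists with fewer than 7 genes tested, of which the 3 X inactivation center genes had a median of 0.63. Among the lists drawn the H3K27me3-imprinted genes have the highest median, 0.50, and the mRNAs of the mitochondrial genome the lowest, -0.36.

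Lineage genes of the later blastocyst stood near the background. Of 26 tested pluripotency genes 5 were separated upwards and 4 downwards (median change 0.02), of 14 trophectoderm genes 5 and 3 (0.05) and of 7 primitive endoderm genes 1 and 1 (-0.12), with 0 called in any. Among all genes tested 20.7% were separated upwards and 18.7% downwards. Utf1, a pluripotency chromatin factor, had 7.84 and 7.41 FPKM in matKO and 2.93 and 3.93 FPKM in CTR (2.22-fold), and Klf4, a pluripotency transcription factor, had 31.2 and 34.9 FPKM in matKO and 18.5 and 29.1 FPKM in CTR. Fgf4, of the same list, ran the other way, with 13.3 and 16.9 FPKM in matKO and 18.5 and 20.2 FPKM in CTR. For Klf4 and Fgf4 the gap between the groups was smaller than the wider spread within a group. Dab2, for an endocytic adaptor on the trophectoderm and primitive endoderm lists, had 2.98 and 1.52 FPKM in matKO and 5.33 and 8.52 FPKM in CTR (0.325-fold, limma adjusted p = 0.474). Thus the widest separated change on these lists went down, in a gene of low level.

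Of 40 tested genes that are read only briefly at the 2-cell stage, 6 were separated upwards and 16 downwards, beside 20.7% and 18.7% of all genes tested, with a median change of -0.14 and 0 called. The filter was passed through matKO alone by 7 of the 40 and through CTR alone by 2. B020004J07Rik had 13.6 and 5.56 FPKM in matKO and 20.2 and 19.6 FPKM in CTR (limma adjusted p = 0.566). Against the direction of the list, Gm4340 had 5.46 and 3.78 FPKM in matKO and 2.14 and 0.47 FPKM in CTR, and Tcstv3 had 8.04 and 1.54 FPKM in matKO and 0.95 and 0.95 FPKM in CTR. Both are among the 7 that passed the filter through matKO alone, the group where they are high. Several of these genes belong to families of near-identical copies, whose fragments cannot be placed with certainty. Of 71 maternal oocyte transcripts 15 were separated upwards and 8 downwards (median 0.03). Oosp1, for a secreted oocyte protein, had 85.2 and 62.9 FPKM in matKO and 42.3 and 37.3 FPKM in CTR (1.86-fold, limma adjusted p = 0.353), and Omt2b had 71.5 and 80.4 FPKM in matKO and 49.1 and 45.5 FPKM in CTR. Oosp2 ran the other way at a low level, with 1.25 and 0.22 FPKM in matKO and 1.65 and 1.54 FPKM in CTR. It passed the filter through CTR alone, the group where it is high.

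A wider view of timing used the oocyte and late 2-cell libraries of the study. Of 1698 tested genes at least 4 times higher in late 2-cell embryos than in MII oocytes 371 were separated upwards and 278 downwards, with a median change of 0.02. Of 1135 tested genes at least 4 times lower there, 174 were separated upwards and 240 downwards, with a median of -0.03. Both medians lie close to that of all genes tested, of which 20.7% were separated upwards and 18.7% downwards. Of 25 germline genes, many of them silenced by DNA methylation and Polycomb in somatic cells, 10 were separated upwards and 4 downwards (median 0.17). Mael and Tex11 serve transposon silencing and meiosis: Mael had 29.1 and 21.2 FPKM in matKO and 15.5 and 17.3 FPKM in CTR, and Tex11 had 23.0 and 22.7 FPKM in matKO and 16.1 and 12.8 FPKM in CTR. Stk31 and Asz1 were lower in both matKO libraries.

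The mRNAs encoded by the mitochondrial genome were lower in matKO embryos, all but 1 of them. In 12 of 13 both matKO libraries lay below both CTR libraries, beside 18.7% of all genes tested; 10 had an unadjusted limma p under 0.05 and 0 were called. The median change was -0.36. mt-Cytb, for cytochrome b, had 6580 and 6562 FPKM in matKO and 9458 and 8786 FPKM in CTR (0.720-fold, log2 change -0.47, SE 0.09, limma adjusted p = 0.353). mt-Nd3, for a subunit of complex I, had 1099 and 1149 FPKM in matKO and 1823 and 1597 FPKM in CTR (0.657-fold, log2 change -0.60, SE 0.10, limma adjusted p = 0.331). mt-Nd3 thus differed most among the 13, and the replicates of each group lay close together. The exception was mt-Nd6, the only one of the 13 that is read from the other strand of the circle, with 1139 and 1033 FPKM in matKO and 1020 and 1181 FPKM in CTR.

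Summed over the 13, the level was 42030 and 38370 FPKM in matKO and 53980 and 49410 FPKM in CTR, or 6.14% and 5.52% of all FPKM in matKO and 7.74% and 7.11% in CTR. The 13 transcripts are processed from shared precursors and are not independent of each other. Of the shares given above, that of mitochondrial rRNA was also lower in matKO, whereas that of 7SL and 7SK was higher. The part of RNA recovery in the difference was not tested. In the KDM6B experiment 7 of the 13 were separated upwards and 0 downwards (median 0.11), beside 15.4% and 21.4% of genes and a median of -0.04 for all genes. In the PR-DUB experiment 0 were separated upwards and 2 downwards (median -0.06), beside 43.3% and 19.1% of genes and a median of 0.17. Nuclear genes of the cytosolic ribosome, which are also abundant, stood at a median change of 0.01 in the Eed experiment. Of these 83, 6 were separated upwards and 9 downwards, beside 20.7% and 18.7% of all genes tested.

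**Figure D5:**
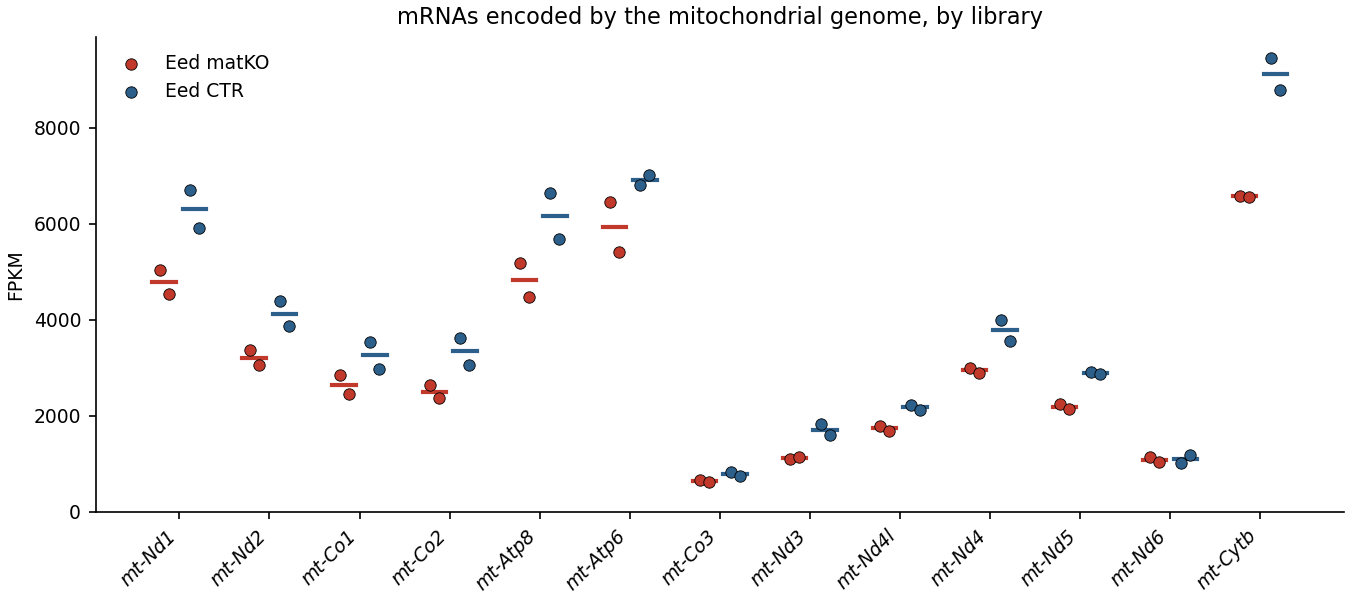
FPKM of the 13 mRNAs encoded by the mitochondrial genome in each Eed matKO and Eed CTR library, in the order of the genome; points are libraries and bars the mean of 2. The matKO points lie below the CTR points for 12 of the 13, and the groups overlap for mt-Nd6.

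Among metabolic genes, 3 of 15 genes of glycolysis were separated upwards and 2 downwards (median 0.06), beside 20.7% and 18.7% of all genes tested. Hk1, for a hexokinase, had 19.2 and 22.3 FPKM in matKO and 9.47 and 9.80 FPKM in CTR (2.15-fold, log2 change 1.03, SE 0.16, limma adjusted p = 0.331), while Ldha, for a lactate dehydrogenase subunit, had 3.73 and 3.45 FPKM in matKO and 6.49 and 7.49 FPKM in CTR. This pair of genes thus ran in opposite directions. In cholesterol synthesis and uptake, 4 of 19 were separated upwards and 5 downwards (median 0.02). Msmo1, for a methylsterol oxidase, had 3.67 and 5.05 FPKM in matKO and 9.30 and 14.0 FPKM in CTR (0.375-fold, limma adjusted p = 0.366).

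The lists of general cell machinery had medians near 0. Among all genes tested 20.7% were separated upwards and 18.7% downwards. Of 46 spliceosome genes 5 were separated upwards and 10 downwards (median -0.04), with Snrpc, for a U1 protein, at 166 and 156 FPKM in matKO and 219 and 217 FPKM in CTR (limma adjusted p = 0.366). Of 75 ribosome biogenesis genes 15 and 16 were separated (median 0.00), and of 32 proteasome genes 2 and 5 (-0.00). Of 24 p53 targets 5 and 2 were separated (-0.01), of 18 genes of the integrated stress response 5 and 2 (0.16), of 17 writers, erasers and readers of DNA methylation 4 and 4 (-0.07) and of 5 interferon and antiviral genes 1 and 3 (-0.13), upwards first in each case. By limma 0 genes of any of these lists were called. Near Eed on chromosome 7 75 genes within 10 Mb were tested, with 13 separated upwards and 6 downwards and a median change of 0.05.

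The size of a difference that could be seen depended on the level. For kept genes with a mean of 2 to 5 FPKM the median absolute difference was 0.33 between the 2 matKO libraries and 0.25 between the 2 CTR libraries (log2), and the median absolute change between groups was 0.24. At 100 FPKM or more these were 0.14 between matKO libraries, 0.11 between CTR libraries and 0.10 between groups. In both classes the median change between groups was no larger than the median difference between libraries of 1 group. The change compares means of 2 libraries, whereas the difference compares single libraries. These unlike measures therefore do not show whether the change exceeds the spread. Below 2 FPKM the median absolute change between groups was 0.30, beside 0.29 between matKO libraries and 0.24 between CTR libraries.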

How the data were processed

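RNA from pools of 4-cell embryos was put straight into lysis buffer and made into stranded SMART-Seq libraries, read as 76 bp pairs on a NextSeq550 or HiSeq2000, per the labels' protocols. The authors' deposited values are FPKM. The submitters' processing notes name the tools StringTie 1.3.3b, Trim Galore 0.6.5 and HISAT2 2.1.0 and the build mm10. Of 46078 gene identifiers 45229 were found in GENCODE vM21, which supplied positions and biotypes, and 27 names that had turned into dates were restored. FPKM were transformed to log2(FPKM + 1), which understates changes of low genes. The 11679 genes that reached 1 FPKM in 2 or more of the 4 libraries were tested with limma 3.58.1 in R 4.3.3 (moderated test with trend, 2 residual degrees of freedom, two-sided, Benjamini-Hochberg adjustment); the steps were tested on simulated data. Fragment numbers are estimates from the smallest FPKM step, assume the length in GENCODE, and cover counting error only, since PCR copies are not independent molecules. Columns headed 30hpf were taken as late 2-cell embryos. The KDM6B, PR-DUB and oocyte values come from separately normalized tables and were used to describe, not to test.

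The genes and gene lists were chosen with earlier results of these data known. Named genes are the called ones; in each direction, the largest changes up to 12 among separated genes with at least 2 FPKM in both libraries of the higher group; the PRC2, H3K27me3-imprinted, X inactivation and Y-linked genes with at least 1 FPKM in any library; and up to 4 separated genes of each other list. Not every gene so chosen is printed. Alternatives were a replicate block, a pseudocount of 0.1, 3 other filters, 2 rescalings, 2 variance models and leaving out each library, and for the X chromosome also all biotypes and summed FPKM. The libraries beyond these comparisons were not analysed here.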

Additional observations from a re-analysis of the deposited data

How the results depend on the processing

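The count of called genes, 2, was 0 without a filter on low values (1444 genes at an unadjusted limma p under 0.05), 4 with a mean FPKM of at least 5, and 1 (Hnrnpf, lower) after rescaling to protein-coding FPKM, a setting that does not hold the 2 noncoding genes. Leaving out 1 library in turn gave 0 to 3 calls, with 0 without matKO replicate 1 and 2 others, both lower, without matKO replicate 2; a group left with 1 library is assumed to vary like the other. With the replicate number as a block the count was 2, with 1028 genes at an unadjusted p under 0.05 against 965; the same-numbered libraries deviated together at r = 0.01 only, so the numbers are not shown to pair them. Xist kept its direction and stayed above the threshold in every alternative run, with a log2 change of 1.66 to 2.82 when 1 library was left out (adjusted p = 0.154 to 0.697) and 2.22 to 2.35 otherwise. The X to autosome difference turned to 0.0464 with all biotypes, was -0.0496 with summed FPKM, and ranged from -0.0314 to 0.0310 with 1 library left out. The median of the H3K27me3-imprinted genes was 0.82 with a mean FPKM of at least 5, where 6 genes remained, 0.50 after rescaling to protein-coding FPKM, and 0.57 to 0.63 with 1 library left out. That of the mitochondrial mRNAs was -0.44 to -0.28 with 1 library left out. Of 141 single genes followed, 0 reversed in 1197 values under the other alternatives; 5 of these values passed the threshold where the reported one did not (4 for Hnrnpf and 1 for Prl3b1) and 2 no longer did (Gm13230 and Gm26079 without a filter). The reported direction turned in 11 genes when 1 library was left out: the ranges were -0.0941 to 0.52 for Suz12, -0.0245 to 0.15 for Rbbp7, -0.29 to 0.28 for Jarid2, -0.12 to 0.0790 for Aebp2, -0.11 to 0.84 for Sfmbt2, -0.77 to 0.60 for Rftn2, -0.25 to 1.51 for Rlim, -0.36 to 0.29 for Ddx3y, -0.0623 to 0.23 for Eif2s3y, -0.50 to 0.22 for Uty and -1.06 to 0.38 for Uba1y. The cause of these shifts was not tested. With 2 libraries a group, only changes far above the spread between libraries could pass.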
